A study of Mus musculus with 9 samples.

Results

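The miR-148 and miR-152 family of the mouse has 3 members on the 3′ strand of their hairpins: miR-148a-3p (MIMAT0000516), miR-148b-3p (MIMAT0000580) and miR-152-3p (MIMAT0000162). They were taken from the deposited miRNA counts by these identifiers and are 3 of the 876 mature miRNAs that had a count in any library. The family was chosen by its counts relative to all miRNA counts in the groups compared here, in which miR-152-3p differed from its relatives, so its levels and fold changes between groups are given as a description, with no test.

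Serum came from healthy male and female 129/SVj mice that were 2 to 9 months old and had been sedated with tribromoethanol before cardiac puncture. The labels name the serum pools A, B and C. RNA of every pool was split into a fraction without depletion (control), a fraction depleted of 5′ tRNA fragments with biotinylated DNA probes and streptavidin beads (beads) and a fraction depleted with probes followed by RNase H and DNase I (RNase H), which gave 9 libraries in 3 groups of 3. The protocol in the labels instead describes aliquots of serum pooled from 3 mice. Replicates that are aliquots differ for technical reasons only. The labels do not settle which they are, but the paper's methods also describe aliquots of a serum pool from 3 mice. A, B and C may thus be technical replicates.

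A miRNA pairs with messenger RNAs mainly through its seed, bases 2 to 8 from its 5′ end, and lowers their output. miRNAs with the same seed can pair with the same sites, and miR-148a, miR-148b and miR-152 are known as a family with shared targets, among them the message of the DNA methyltransferase Dnmt1. miR-148a is abundant in the liver. Serum carries miRNAs released by many tissues inside vesicles or bound to proteins.

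The mature sequences are printed first because the contrast within the family is between miRNAs that are almost the same molecule. Capitals mark the seed, and sequences and positions are those of RefSeq on GRCm38.p6.
miR-148a-3p: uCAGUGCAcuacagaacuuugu
miR-148b-3p: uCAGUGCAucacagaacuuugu
miR-152-3p: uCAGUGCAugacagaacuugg

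All 3 carry the seed CAGUGCA, and among the 1674 distinct mature sequences of the RefSeq table no other sequence has it. Counted from 1 at the 5′ end, miR-148b-3p differs from miR-148a-3p at 2 of 22 positions (C9U and U10C). miR-152-3p differs from miR-148a-3p at 3 of 21 positions (C9U, U10G and U20G) and from miR-148b-3p at 2 (C10G and U20G), and it is a base shorter than both. Its G and C content is 47.6%, against 40.9% in each miR-148.

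The differences next to the seed keep the reads of the members apart. The longest run of bases that miR-152-3p shares with another member is 9, and miR-148a-3p and miR-148b-3p share 12. Reads under 15 bases were discarded and mapping allowed no mismatch. Only reads that run past the 3′ end could be shared, since the longest run that the hairpins of miR-148a and miR-148b share is 15 bases and starts at base 11 of the mature sequence. The hairpin of miR-152 shares no run above 12 bases with either.

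Each mature sequence lies in 1 hairpin of the 1005 in the RefSeq table. The hairpins are printed with the mature 3′ strand in capitals, to place the counted bases in their precursor.
Mir148a: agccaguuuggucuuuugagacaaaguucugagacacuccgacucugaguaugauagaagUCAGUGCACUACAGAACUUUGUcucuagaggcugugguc
Mir148b: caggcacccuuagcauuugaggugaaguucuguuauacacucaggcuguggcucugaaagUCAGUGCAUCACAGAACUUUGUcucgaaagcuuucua
Mir152: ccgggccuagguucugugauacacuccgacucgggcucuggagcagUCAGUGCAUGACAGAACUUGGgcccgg

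Mir148a spans chr6:51269812-51269910 on the minus strand, and the mature miRNA lies at chr6:51269829-51269850. GENCODE M21 lists no other transcript over it. Mir148b spans chr15:103285125-103285221 on the plus strand, with the mature miRNA at chr15:103285185-103285206, inside introns of 4 transcripts of Copz1. Mir152 spans chr11:96850393-96850465 on the plus strand, with the mature miRNA at chr11:96850439-96850459, inside introns of 3 transcripts of Copz2. Copz1 and Copz2 are related genes that encode zeta subunits of the coatomer, the coat of transport vesicles. Neither hairpin overlaps an exon of its host gene.

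Levels are given as CPM, the count of a miRNA per 1000000 miRNA counts of its library. Levels were not scaled to length, since a read counts once for its miRNA and the members differ in length by at most a base. The control libraries held 205185 to 330676 miRNA counts, the beads libraries 1822088 to 1995956 and the RNase H libraries 1199 to 2040. A floor of 3 counts corresponded to at most 14.6 CPM in a control library, to at most 1.65 CPM in a beads library and to between 1471 and 2502 CPM in an RNase H library. Intervals are exact 95% binomial intervals, and intervals and floors cover counting error only, as the reads carry no molecular identifiers.

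In control serum, miR-148a-3p made up nearly all of the family. It had 1310, 1915 and 1386 counts in pools A, B and C, or 6384, 5791 and 5573 CPM, with a mean of 5916 ± 420 CPM (SD, n = 3). It was the 29th most abundant miRNA in each of the 3 control libraries.

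miR-148b-3p was far lower in control serum, with 24, 51 and 34 counts in pools A, B and C. Its level was 117, 154 and 137 CPM, with a mean of 136 ± 18.6 CPM (SD, n = 3). It ranked between 115th and 128th.

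miR-152-3p was the rarest member in control serum, with 7, 14 and 17 counts in pools A, B and C. The level was 34.1, 42.3 and 68.4 CPM (mean 48.3 ± 17.9 CPM, SD, n = 3). The control levels of the members did not overlap: the lowest level of miR-148b-3p lay above the highest of miR-152-3p, and miR-148a-3p lay above both.

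After depletion with beads, miR-148a-3p stayed near its control level relative to all miRNAs. It had 10402, 10684 and 9273 counts in pools A, B and C, or 5399, 5353 and 5089 CPM (mean 5280 ± 167 CPM, SD, n = 3). All 3 beads libraries lay below all 3 control libraries, by a small margin. The ratio of beads to control level was 0.846, 0.924 and 0.913 in pools A, B and C, and miR-148a-3p ranked 30th in every beads library.

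miR-148b-3p was moderately higher after depletion with beads, with 383, 422 and 394 counts in pools A, B and C. Its level was 199, 211 and 216 CPM (mean 209 ± 9.00 CPM, SD, n = 3), and the groups did not overlap. How many other miRNAs had groups without overlap was not counted, so nothing is read from this for any member. The ratio to the control level was 1.70, 1.37 and 1.58 in pools A, B and C.

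miR-152-3p was higher after depletion with beads by more than an order of magnitude. It had 1913, 1908 and 2249 counts in pools A, B and C, where the control libraries had 7, 14 and 17. Its level was 993, 956 and 1234 CPM (mean 1061 ± 151 CPM, SD, n = 3). The lowest beads library was far above the highest control library. The exact 95% intervals of single libraries ended at most at 109 CPM in control and began at 914 CPM or above with beads. These intervals cover counting error only, and the family was chosen by this contrast, so they are a description.

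Within pools, the ratio of beads to control level of miR-152-3p was 29.1 in A, 22.6 in B and 18.1 in C. The ratio of the mean levels was 22.0, against 1.54 for miR-148b-3p and 0.893 for miR-148a-3p. From counts summed over pools the ratio for miR-152-3p was 21.8, with an exact interval of 15.9 to 30.9. In rank it stood between 63rd and 70th in beads libraries, ahead of miR-148b-3p, which ranked 107th to 111th there and had been the more abundant of them in control serum.

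**Figure D1:**
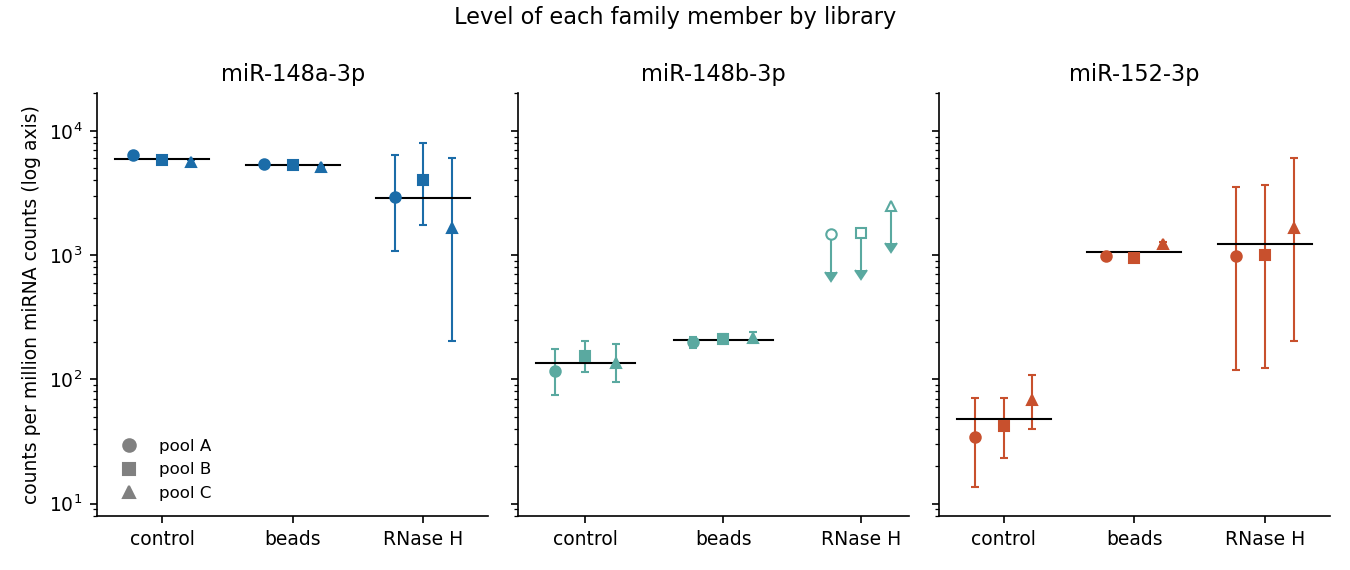
Level of miR-148a-3p, miR-148b-3p and miR-152-3p in the 9 libraries, in CPM on a log axis. Filled symbols are libraries (shape gives the pool) with exact 95% intervals, horizontal lines are group means, and open symbols with arrows give the level of 3 counts where a library had none. miR-152-3p lies between 34.1 and 68.4 CPM in control and between 956 and 1234 CPM in beads libraries, while miR-148a-3p stays between 5089 and 6384 CPM in both groups.

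Beads libraries also held more miRNA counts than control libraries, and the raw counts of all 3 members were higher. The mean count was 6.58 times the control count for miR-148a-3p, 11.0 times for miR-148b-3p and 159.7 times for miR-152-3p. Scaled to all annotated counts of a library, tRNA and other small RNAs included, the ratios were 9.02, 15.2 and 212.7. A change of scale multiplies the 3 members of a library by the same factor. Within a pool the order of the members is therefore the same on every scale, and the scales are no separate support.

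Ratios between members of a library need no scaling to its depth. For every 100 counts of miR-148a-3p and miR-148b-3p together, control libraries held 0.525, 0.712 and 1.20 counts of miR-152-3p in pools A, B and C. Beads libraries held 17.7, 17.2 and 23.3. On the log2 scale the ratio was -6.97 ± 0.58 in control and -2.38 ± 0.24 in beads libraries (SD, n = 3), a difference of 4.59 ± 0.37 (mean and SD of the differences within 3 pools).

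The balance between the miR-148 members moved much less. Per 100 counts of miR-148a-3p there were 1.83, 2.66 and 2.45 counts of miR-148b-3p in control pools A, B and C, and 3.68, 3.95 and 4.25 in beads libraries. The groups did not overlap, and the group means were 2.32 ± 0.432 and 3.96 ± 0.284 (SD, n = 3). How often ratios of other miRNAs had groups without overlap was not counted for either depletion, so nothing is read from this.

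The sum of the family was almost the same in both groups. It was 6100 ± 391 CPM in control and 6550 ± 36.6 CPM in beads libraries (SD, n = 3). Its makeup differed: miR-152-3p made up 0.804% ± 0.341 of the family's counts in control and 16.2% ± 2.32 in beads libraries, while miR-148a-3p made up 97.0% ± 0.651 and 80.6% ± 2.42 (SD, n = 3). miR-148b-3p held 2.24% ± 0.407 and 3.19% ± 0.153.

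**Figure D2:**
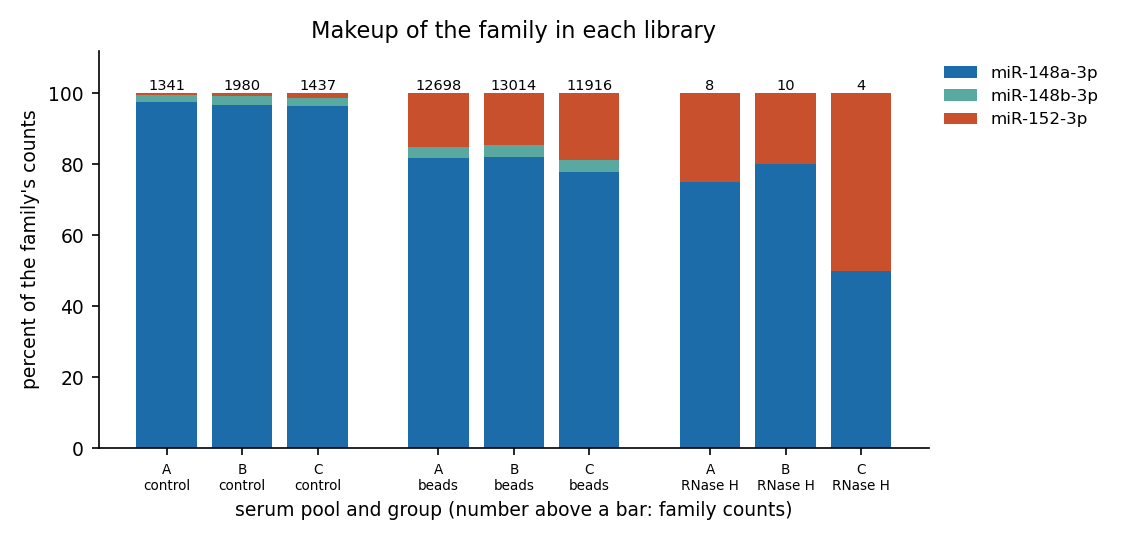
Share of each member in the family's counts in the 9 libraries, in percent, with the number of family counts above each bar. The share of miR-152-3p is at most 1.18% in control libraries, between 14.7% and 18.9% in beads libraries and between 20% and 50% in RNase H libraries, where a bar rests on 4 to 10 counts.

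Spread between pools was compared with the spread that counting alone gives at the mean count. In beads libraries the coefficient of variation of the level was 3.17% for miR-148a-3p, 4.31% for miR-148b-3p and 14.2% for miR-152-3p, against 0.994%, 5.0% and 2.22% from counting. miR-152-3p was thus the most variable member there relative to its depth, with pool C above pools A and B. In control libraries the values were 7.10%, 13.7% and 37.0%, against 2.55%, 16.6% and 28.1% from counting. With 7 to 17 counts, most of the scatter of miR-152-3p between control pools is of the size that counting gives.

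edgeR's quasi-likelihood test was fitted to all miRNAs, to set the members beside the rest. Between beads and control libraries, 307 miRNAs passed the filter on low counts and 82 of them, 26.7%, had an adjusted p below 0.05. All 3 members passed the filter, and 2 of the 3 were called, miR-148b-3p and miR-152-3p, both as higher with beads. Because this contrast chose the family, nothing is read from that count. The fitted log2 fold change was 4.46 ± 0.18 (SE) for miR-152-3p, 0.60 ± 0.17 for miR-148b-3p and -0.16 ± 0.073 for miR-148a-3p. The median of all tested miRNAs was 0.043, and the 5th and 95th percentiles were -0.81 and 2.11.

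miR-152-3p had the 3rd highest fold change of the 307 miRNAs, and 6 miRNAs in all were above 4 on the log2 scale. miR-148b-3p ranked 56th and miR-148a-3p 208th from the top. High fold changes were mostly those of miRNAs with few control counts, so each member was also set beside the tested miRNAs within a factor of 2 of its control level. Of 85 such miRNAs for miR-152-3p, none had a higher fold change. Their median was -0.032, their highest 4.03, and 15 were called. The family was chosen by this contrast, so the place of miR-152-3p among them is a description only. It also depends on the range of levels taken: MIMAT0000657, at 15.9 CPM in control and outside the range, had a log2 fold change of 4.96. Of 55 miRNAs at the level of miR-148b-3p, 4 were higher than it and the median was -0.075. Of 20 miRNAs at the level of miR-148a-3p, 12 were higher and the median was -0.052.

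**Figure D3:**
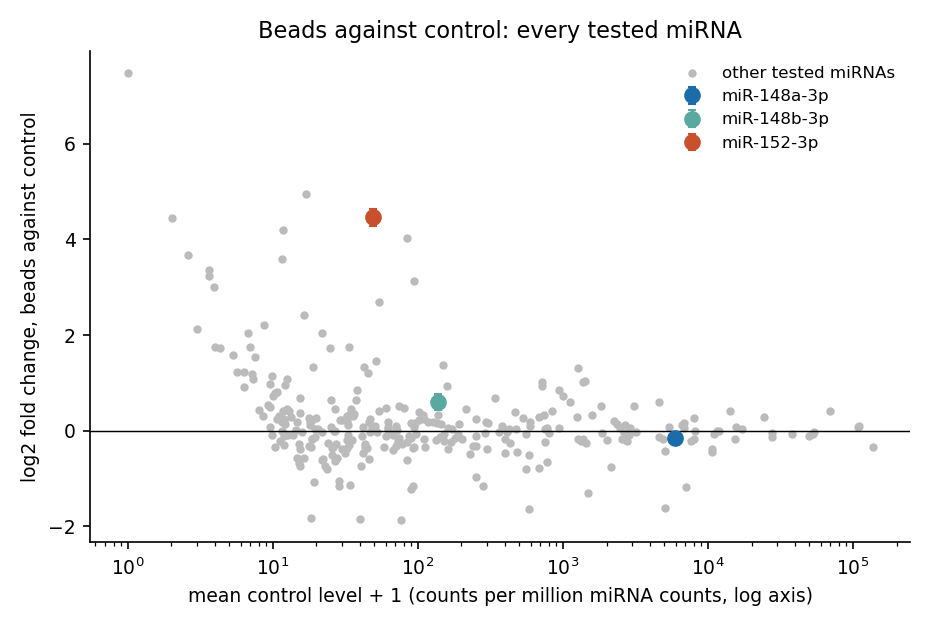
Log2 fold change of beads against control for the 307 tested miRNAs, against the mean control level plus 1 CPM on a log axis. Grey points are the other miRNAs, and bars on the members are standard errors. miR-152-3p (4.46) lies above the 85 miRNAs within a factor of 2 of its control level, whose highest value is 4.03 and whose median is -0.032, and miR-148a-3p (-0.16) lies near 0.

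The miRNAs most like each member were found by the mean absolute difference of the log2 ratio of beads to control level within the 3 pools. By this measure miR-152-3p had no close neighbour. The measure takes no account of counting error, which is large at the few control counts of miR-152-3p. The nearest of the 306 others was MIMAT0000657, with a mean difference of 0.38, and the next was MIMAT0000224, with 0.50. The files give these miRNAs without a name. MIMAT0000657 had 3 to 6 counts in control and 835 to 1001 in beads libraries, and MIMAT0000224 had 16 to 31 and 2548 to 2683. Around miR-148a-3p, which had far more control counts, 12 miRNAs lay within 0.1 on the log2 scale, and the nearest differed from it by 0.047. For miR-148b-3p a single miRNA lay within 0.1, at 0.099.

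In RNase H libraries the family was at the edge of detection, with 8, 10 and 4 counts in pools A, B and C. miR-148a-3p had 6, 8 and 2 counts, or 2941, 4047 and 1668 CPM (mean 2885 ± 1190 CPM, SD, n = 3). Its count in pool C was below the floor of 3 counts. All 3 libraries lay below all control libraries in CPM, but in each of them the exact interval reached at least 6012 CPM and so included the control mean. From counts summed over pools, the ratio to control was 0.522, with an exact interval of 0.298 to 0.848.

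miR-148b-3p had no count in any RNase H library. A count of 0 of the 5216 miRNA counts of the 3 libraries together allows a level of up to 575 CPM, which is above its control level of 136 CPM and its beads level of 209 CPM. A difference from either group was not detectable at this depth, and no fold is given.

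miR-152-3p had exactly 2 counts in each RNase H library, below the floor of 3 counts. This corresponds to 980, 1012 and 1668 CPM (mean 1220 ± 388 CPM, SD, n = 3). As the count was the same in all 3 libraries, this SD comes only from their differing miRNA totals and is no spread of the count. A single library of this depth gives a wide interval, 119 to 3537 CPM in pool A. Its lower end lies above the highest upper end in a control library (109 CPM), but both cover counting error only. From counts summed over pools, 6 of 5216 against 38 of 784557, the ratio of RNase H to control level was 23.7, with an exact interval of 8.21 to 56.6. Within pools the ratio was 28.7, 23.9 and 24.4, close to those with beads, although each rests on 2 counts. The raw count of miR-152-3p was lower than in control, at 0.158 times the control mean.

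The depth can be put in terms of counts. At the control level, the 3 RNase H libraries together would hold 30.9 counts of miR-148a-3p, 0.709 of miR-148b-3p and 0.252 of miR-152-3p. They held 16, 0 and 6. At the beads level they would hold 27.5, 1.09 and 5.54. The observed count of miR-152-3p was thus near the number at the beads level, that of miR-148a-3p was below both numbers, and that of miR-148b-3p does not separate them.

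**Figure D4:**
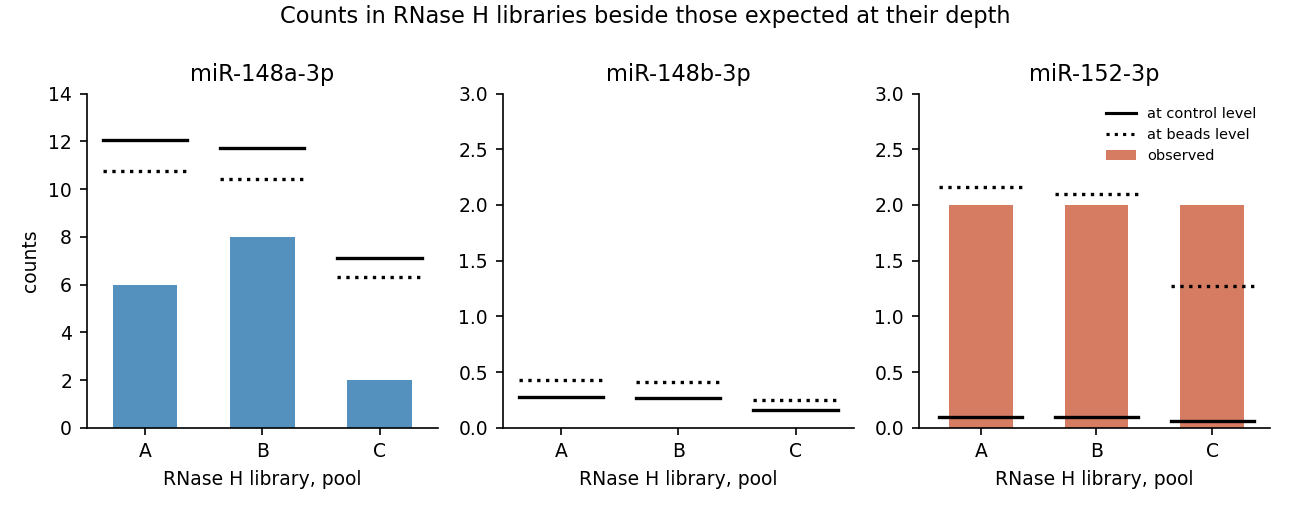
Observed counts of each member in the 3 RNase H libraries (bars), beside the counts that a library of the same miRNA depth would hold at the mean control level (solid line) and the mean beads level (dotted line); the vertical scale of miR-148a-3p differs. miR-152-3p had 2 counts in each library, where the control level would give at most 0.0985.

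Relative to its relatives, miR-152-3p was higher in every RNase H library than in any control library. Per 100 counts of miR-148a-3p and miR-148b-3p it had 33.3, 25 and 100 counts in pools A, B and C. On the log2 scale, with a pseudocount of 0.5, the ratio was 5.92 ± 0.54 above control (mean and SD of 3 differences within pools). Its share of the family's counts was 25% in pool A (exact 95% interval 3.19% to 65.1%), 20% in pool B (2.52% to 55.6%) and 50% in pool C (6.76% to 93.2%). In control libraries the upper ends of these intervals were at most 1.89%. The RNase H intervals overlap those of beads libraries.

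The order of the levels therefore differed between groups. In control serum it was miR-148a-3p, miR-148b-3p, miR-152-3p, and in beads libraries miR-148a-3p, miR-152-3p, miR-148b-3p, with no overlap between neighbours in either group. In RNase H libraries miR-148a-3p and miR-152-3p were not told apart, with 2 counts each in pool C and overlapping intervals in all pools.

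In the edgeR fit of RNase H against control libraries, 138 miRNAs were tested and 16 of them, 11.6%, were called. The 3 members passed the filter, which asked for 96.5 CPM in at least 3 libraries. miR-152-3p reached that level only in the RNase H libraries, so it could enter the test only where it was high. Of the members, 2 were called, miR-152-3p as higher (log2 fold change 4.43 ± 0.77 SE, 3rd highest of 138) and miR-148a-3p as lower (-1.06 ± 0.31 SE), and nothing is read from that count either. The 6 other tested miRNAs within a factor of 2 of the control level of miR-152-3p were all higher with RNase H too. Their log2 fold changes ran from 0.867 to 9.69, with a median of 2.925, and 3 were called. At such control levels they too could hardly pass the filter through the control libraries alone, so nothing is read from their direction. With the pool as a replicate block the value of miR-148a-3p was -1.11 and it was no longer called, and its call was lost under 7 of the 9 alternatives tried.

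Both depleted groups were compared with the same 3 control libraries, in which miR-152-3p had 38 counts in all, so their ratios share that denominator. miRNA depth differed between all groups and moved with the depletion. Its part in the differences between members was not tested. The level of a miRNA in serum does not tell how many cells released it from how much it was released by each.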

How the data were processed

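Small RNA was sequenced from 9 serum libraries in 3 groups. The authors trimmed adapters (cutadapt 1.8.1), dropped reads under 15 bases, mapped with Bowtie 1.1.2 to GRCm38 without mismatches and annotated reads by position, miRNAs with miRBase. The authors deposited raw counts, in 2 files for each library, with 1 row per mature miRNA identifier or per other small RNA sequence and no normalization. Reads with untemplated ends or errors are missing from them.

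The members, lists and tests were chosen with earlier results of these data known. Levels were computed as CPM of the miRNA counts of a library, with exact (Clopper-Pearson) intervals from SciPy 1.17.1. All miRNAs were fitted with edgeR 4.0.16 in R 4.3.3 (TMM, filterByExpr, quasi-likelihood test, Benjamini-Hochberg adjustment, threshold 0.05), each depleted group with the controls only. SEs were derived from the fold change and its F statistic. The fit was also run on simulated counts, and nothing given here rests on that run. DESeq2 1.42.0 and other settings were alternatives.

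Libraries of a group were not duplicates: the chi-square statistic per degree of freedom between any 2 of them was at least 1.37. The labels give the same letters A, B and C in every group, as the RNA of each was split. The letter thus pairs the libraries whether it stands for a pool or for an aliquot. If it stands for an aliquot, every SD given here is technical spread. Deviations of same-pool libraries from their group means correlated at -0.147 to 0.216 (beads) and -0.285 to 0.314 (RNase H) across miRNAs.

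The rule for named miRNAs covered the members, their opposite strands, the 3 miRNAs nearest to each member in their beads to control ratios, and seed families. The files give identifiers without names. Opposite strands, seed families, the list of other miRNAs known for DNA methyltransferase targets and lists of cell type markers were therefore not analysed here, and of the nearest miRNAs only 2 are printed.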

Additional observations from a re-analysis of the deposited data

How the results depend on the processing

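The members were chosen from these contrasts, so their values under the 9 alternatives are a description and no sign of stability. The fitted log2 fold change of miR-152-3p ranged from 4.37 to 4.64 for beads and from 4.26 to 4.68 for RNase H, where it passed the filter only through the RNase H libraries. That of miR-148b-3p ranged from 0.55 to 0.71 for beads, and it was not followed for RNase H, where it had no count. The call of miR-148a-3p varied: for beads (-0.21 to -0.10) it was called under 2 of the 9 alternatives, and for RNase H (-1.55 to -0.84) it was no longer called under 7 of 9. The number of called miRNAs for beads stayed within a factor of 1.5 of 82. For RNase H it was 16, against 32 with DESeq2 and 12 with the pool as a replicate block, and between 4 and 30 when a pool was left out (8 without pool A, 30 without B, 4 without C). With the block, miR-148a-3p lost its call for RNase H.

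With all annotated counts as the denominator, the beads to control ratios were 9.02 for miR-148a-3p, 15.2 for miR-148b-3p and 212.7 for miR-152-3p, and the RNase H to control ratios were 0.219 for miR-148a-3p and 9.01 for miR-152-3p. With miR-148b-3p alone as reference, the log2 ratio of miR-152-3p was 3.84 higher in beads than in control libraries. For RNase H that reference had no count and gave no value. Other pseudocounts, summed counts and leaving out a pool moved the ratios by less than the spread between pools. Values in RNase H libraries rest on at most 8 counts of a member per library. Those of miR-152-3p rest on 2 counts per library, below the floor of 3.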
